A study of Homo sapiens with 6 samples.

Results

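The genes described here are 10 components of the bone morphogenetic protein (BMP) pathway in DU145 cells, a human metastatic castration-resistant prostate cancer cell line. They are the ligand genes BMP4, BMP2 and BMP7, the receptor genes BMPR1A and BMPR2, the target genes ID1, ID2 and ID3 and the inhibitory SMAD genes SMAD6 and SMAD7. All 10 were matched by symbol in a table of 27381 genes. BMP4 had been selected on its high value in RCC2 KO relative to Scr in earlier work on the same table, and the other members by their place in the pathway, so the BMP4 values are given as a description. RNA sequencing covered 6 libraries, with 2 each labelled as DU145 cells given a scrambled control (Scr), as CD24 KO and as RCC2 KO. The knockouts were made with CRISPR/Cas9 by transfection of a plasmid that also encodes GFP, and GFP-positive cells were sorted and grown as clones. The paper describes 2 clones of each knockout, and the labels do not say which clone a library came from. All 3 groups therefore share the cell line and the exposure to Cas9 and GFP, and clone and genotype cannot be told apart.

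The deposited values are FPKM, fragment numbers corrected for the length of the transcript and for the size of the library. The table holds 1 value per gene and condition. It has no value for single libraries, so no SD, test or replicate check could be had for any value below, and the depth is unknown. The RCC2 KO column carries a name that is the whole label of the first RCC2 KO library and the stem of the second, so it may hold 1 library or both. RNA of the targeted genes did not follow the labels. CD24 had 93.2 FPKM for Scr, 309 for the column labelled CD24 KO and 214 for the column labelled RCC2 KO. RCC2 was at 37.8, 14.2 and 41.8 FPKM in the same order. The deposited table places CD24 on chromosome Y, at a position shared with TTTY14, so the CD24 value is less certain. Every direction below rests on the labels, which the RNA of neither targeted gene bears out. The paper reports that its DU145 knockout lines were checked by DNA sequencing, protein blots and flow cytometry. RNA level is a different measure from these. The cell type was checked against markers. Of 5 epithelial genes (EPCAM, CDH1, KRT8, KRT18 and KRT19), 5 were above 1 FPKM, with summed levels of 798.7 FPKM for Scr, 499.8 for CD24 KO and 842.6 for RCC2 KO. KLK3 was listed at 0 in every column. Across 10 leukocyte, endothelial and fibroblast genes the summed level was between 0.712 and 1.01 FPKM, and no single gene was above 0.679 FPKM.

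BMPs are secreted ligands of the TGF-β superfamily. They bind pairs of type I and type II receptor kinases, and the type I kinase phosphorylates SMAD1, SMAD5 and SMAD9, which enter the nucleus with SMAD4. The ID genes are classic early targets and encode helix-loop-helix proteins without a DNA-binding region, which hold E proteins away from DNA. SMAD6 and SMAD7 are induced as feedback inhibitors, SMAD6 mainly of BMP receptors and SMAD7 of both BMP and TGF-β receptors. ID genes and SMAD7 also respond to other signals. In the prostate, BMPs are known for roles in gland branching and in bone metastasis.

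BMP4 alone of the 3 ligand genes reached 1 FPKM in any column. It had 1.89 FPKM for Scr, 3.98 for the column labelled CD24 KO and 9.50 for the column labelled RCC2 KO. Both knockout columns were thus above Scr, and the RCC2 KO column was the highest. The ratios to Scr were 2.103 for CD24 KO and 5.02 for RCC2 KO. On the scale of log2(FPKM + 1), used for all differences below, these were differences of 0.78 and 1.86. The pseudocount of 1 makes low genes differ less, and BMP4 was among the low genes here. With a pseudocount of 0.1 the difference for CD24 KO was 1.03, past the 2-fold minimum that a difference of 1 marks. With a pseudocount of 5 the difference for RCC2 KO was 1.07. In RCC2 KO, BMP4 ranked 19 from the highest among the 12822 genes compared, which were those with at least 1 FPKM in at least 1 column. In CD24 KO it ranked 627. In the deposited table BMP4 spans chromosome 14 from 54416455 to 54423609, in coordinates read as hg19. BMP2, a ligand of the same subgroup as BMP4, was listed at 0 in Scr and in RCC2 KO and was at 0.0795 FPKM in CD24 KO. BMP7, a ligand of another subgroup known for its role in kidney and bone, was at 0.0962 FPKM in Scr, listed at 0 in CD24 KO and at 0.0621 FPKM in RCC2 KO. Neither was compared further. BMP7 shares its position in the table with the antisense gene BMP7-AS1, which was listed at 0 in every column. RNA in a culture is a mean over its cells, so more cells with BMP4 RNA and more BMP4 RNA per cell cannot be told apart.

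**Figure D1:**
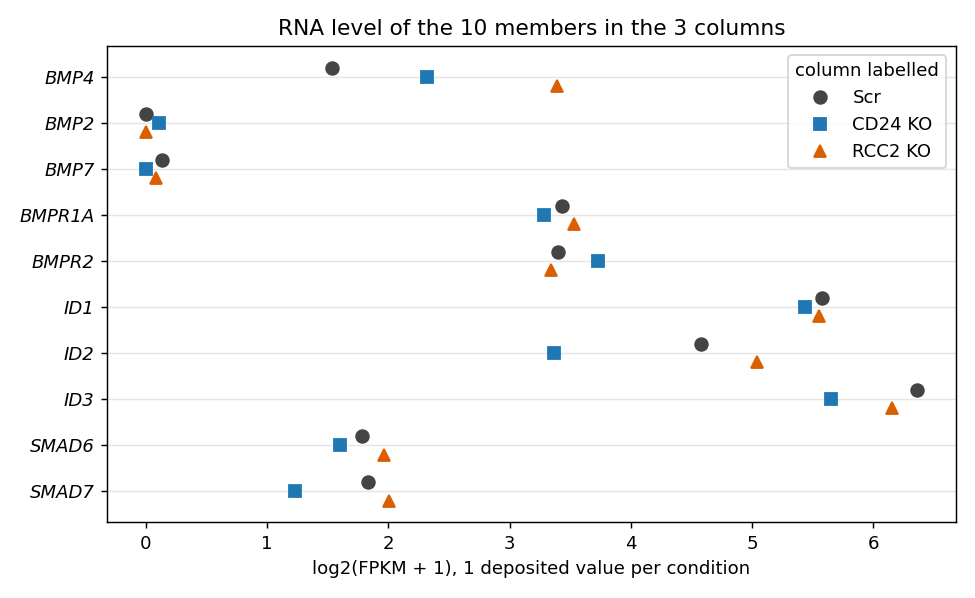
RNA level of the 10 members as log2(FPKM + 1) on the horizontal axis, with 1 point for each deposited column: circles for Scr, squares for CD24 KO and triangles for RCC2 KO. BMP4 runs from 1.89 FPKM for Scr to 9.50 FPKM for RCC2 KO, BMP2 and BMP7 lie at or near 0, and ID1 and ID3 are the highest in every column.

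The receptor RNAs were among the least different members. BMPR1A, a type I receptor kinase that binds BMP2 and BMP4, had 9.82 FPKM for Scr, 8.76 for CD24 KO and 10.6 for RCC2 KO. BMPR2, the type II receptor kinase that acts with it, had 9.57 FPKM for Scr, 12.2 for CD24 KO and 9.16 for RCC2 KO. The log2 differences from Scr were -0.15 and 0.10 for BMPR1A and 0.32 and -0.06 for BMPR2, in CD24 KO and RCC2 KO respectively. The receptor genes thus lay on opposite sides of Scr in each knockout, and neither differed by 1.5-fold. BMPR1A has 2 pseudogenes by name in GENCODE 29, between which and the gene fragments could have been divided. Within a column FPKM can be set side by side between genes, since it is scaled to length. BMP4 RNA was below both receptor RNAs in Scr and in CD24 KO. In RCC2 KO it lay between BMPR2 and BMPR1A, at levels of 9.16, 9.50 and 10.6 FPKM that cannot be ordered without a spread between libraries.

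The ID genes held most of the RNA of the members. ID3 had 81.2 FPKM for Scr, 49.2 for CD24 KO and 70.4 for RCC2 KO. ID1 was at 46.8, 42.4 and 46.0 FPKM, and ID2 was at 23.0, 9.34 and 31.8 FPKM, in the same order of columns. ID3 was the highest, ID1 the next and ID2 the lowest of these in every column. ID1, ID2 and ID3 were below Scr in CD24 KO, ID1 not under quantile normalization, while in RCC2 KO ID2 was above Scr and the others below it. ID2 fell by 1.21 on the log2 scale in CD24 KO, to a ratio of 0.407 of Scr, and ranked 193 from the lowest of 12822 genes. Its difference in RCC2 KO was 0.45, a ratio of 1.39. ID3 differed by -0.71 in CD24 KO, a ratio of 0.606, and by -0.20 in RCC2 KO. ID1 differed by -0.14 in CD24 KO and by -0.03 in RCC2 KO, and quantile normalization of the columns took the first of these to 0.0048, on the other side of Scr. On the scale of log2(FPKM + 1), ID2 was the only member compared past the 2-fold minimum in CD24 KO, 1 of 8, and it was lower. BMP4, at 2.103 times Scr by plain ratio, fell short of the minimum on this scale. Among all genes compared, 3.03% were at least 2-fold lower and 2.67% at least 2-fold higher in CD24 KO. Among genes with a mean of 10 to 100 FPKM, the range in which ID2 lies, 3.60% were at least 2-fold lower. With a pseudocount of 5 the ID2 difference was -0.96, short of the minimum. The 5 epithelial markers went both ways in CD24 KO, 3 lower than Scr and 2 higher. KRT8, KRT18 and EPCAM had log2 differences of -1.17, -1.05 and -0.38, and KRT19 and CDH1 of 0.43 and 0.89. KRT8 and KRT18 share 1 position in the table, so their values may not be separate. The part of these marker differences in the ID2 difference was not tested.

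The inhibitory SMAD RNAs were low in every column. SMAD6 had 2.43 FPKM for Scr, 2.03 for CD24 KO and 2.90 for RCC2 KO. SMAD7 had 2.57 FPKM for Scr, 1.35 for CD24 KO and 3.01 for RCC2 KO. Both were lowest in CD24 KO and highest in RCC2 KO as deposited, with small steps from Scr to RCC2 KO. The log2 differences of SMAD6 were -0.18 and 0.18, and those of SMAD7 were -0.61 and 0.17. SMAD7 in CD24 KO was at a ratio of 0.524 of Scr, a larger gap than its log2 difference shows because of the pseudocount. SMAD6 and SMAD7 levels in Scr, 2.43 and 2.57 FPKM, cannot be ordered without replicates. SMAD7 lies on chromosome 18, where 191 genes compared had a median log2 difference of -0.21 in RCC2 KO, and SMAD7 lay above that median.

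The letters before the annotated starts of the 5 target genes are shown because SMAD proteins are known to bind short motifs in such regions. The windows are the 250 bases before a gene's start in RefSeq on GRCh38.p14, each on the strand of the gene. Capitals mark GTCT or AGAC, which is the 4-base SMAD box read on either strand, and GGCGCC, a GC-rich SMAD site that reads alike on both strands. For SMAD7, which has 3 annotated starts, the window of the outermost start is given.
ID1 (chr20:31605039-31605288, plus strand): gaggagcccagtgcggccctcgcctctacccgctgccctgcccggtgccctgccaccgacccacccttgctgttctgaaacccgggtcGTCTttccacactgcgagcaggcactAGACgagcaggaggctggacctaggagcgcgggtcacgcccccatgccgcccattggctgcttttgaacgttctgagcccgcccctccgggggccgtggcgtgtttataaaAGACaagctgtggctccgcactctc
ID2 (chr2:8681806-8682055, plus strand): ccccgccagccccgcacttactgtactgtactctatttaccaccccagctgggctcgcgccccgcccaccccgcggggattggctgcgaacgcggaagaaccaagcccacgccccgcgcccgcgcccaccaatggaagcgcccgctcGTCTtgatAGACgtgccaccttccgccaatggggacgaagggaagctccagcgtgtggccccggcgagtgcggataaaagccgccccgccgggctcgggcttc
ID3 (chr1:23559502-23559751, minus strand): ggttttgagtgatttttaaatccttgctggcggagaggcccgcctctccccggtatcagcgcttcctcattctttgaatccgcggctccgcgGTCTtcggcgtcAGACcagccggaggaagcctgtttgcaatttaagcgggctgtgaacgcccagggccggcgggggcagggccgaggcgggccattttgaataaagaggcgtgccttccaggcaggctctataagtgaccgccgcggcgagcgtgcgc
SMAD6 (chr15:66701986-66702235, plus strand): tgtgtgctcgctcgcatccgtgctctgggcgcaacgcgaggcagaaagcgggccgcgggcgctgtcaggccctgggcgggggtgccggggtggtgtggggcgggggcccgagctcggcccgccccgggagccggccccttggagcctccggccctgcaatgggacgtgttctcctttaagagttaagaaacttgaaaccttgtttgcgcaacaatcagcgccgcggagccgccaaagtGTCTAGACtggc
SMAD7 (chr18:48950966-48951215, minus strand): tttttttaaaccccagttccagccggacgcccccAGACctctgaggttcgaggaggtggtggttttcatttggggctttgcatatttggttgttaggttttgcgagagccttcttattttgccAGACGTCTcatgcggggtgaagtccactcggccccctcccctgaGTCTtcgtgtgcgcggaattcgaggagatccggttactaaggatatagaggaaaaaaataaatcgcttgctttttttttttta

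The SMAD6 window held the 8-base palindrome GTCTAGAC, a GTCT joined to an AGAC, beginning 12 bases before the start. This palindrome was found in 0.182% of the 35116 windows of the same length, and in none of the windows of the other members. The SMAD box alone was found in 77.5% of windows. ID1 held 3 matches, ID2 2, ID3 2, SMAD6 2 and this SMAD7 window 4, against a median of 1 over all windows. In ID2 and ID3 the matches were a GTCT and an AGAC a few bases apart. GGCGCC was in none of the 5 windows shown and in 16.4% of all windows. ID2 and ID3, alike in this pairing, differed in the order of their columns as deposited, though ID3 in RCC2 KO was at a ratio of 0.868 to Scr. A match is no evidence of binding, and no binding was measured in these cells.

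The values were then set beside BMP4 to see whether the RNA of the target genes followed that of the ligand across the columns. From low to high, BMP4 ran from Scr to CD24 KO to RCC2 KO. Of the 5 ID and inhibitory SMAD genes, 0 had this order, which 7.29% of all genes compared had. ID2, SMAD6 and SMAD7 ran from CD24 KO to Scr to RCC2 KO, 3 of 5, an order that 27.0% of genes had. ID1 and ID3 ran from CD24 KO to RCC2 KO to Scr, 2 of 5, an order that 17.3% of genes had. The ratios of RCC2 KO to Scr were 0.982 for ID1, 0.868 for ID3, 1.19 for SMAD6 and 1.17 for SMAD7. For these genes the order of Scr and RCC2 KO is therefore uncertain without replicates. Thus 5 of 5 target genes were lowest in the column labelled CD24 KO, as were 44.2% of genes compared, although quantile normalization moved ID1 out of this group. In that column BMP4 was at 2.103 times its Scr level, and the targets were at 0.407 to 0.905 times theirs. In the column labelled RCC2 KO, BMP4 was at 5.02 times its Scr level, and the targets were at 0.868 to 1.39 times theirs. BMP4 was chosen for its value in RCC2 KO relative to Scr, so nothing is read from the gap to the targets there, and both knockouts were read against the same Scr values. With 3 columns no relation between genes can be tested, and these orders describe the deposited values only. Protein levels and SMAD phosphorylation were not measured in this table.

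**Figure D2:**
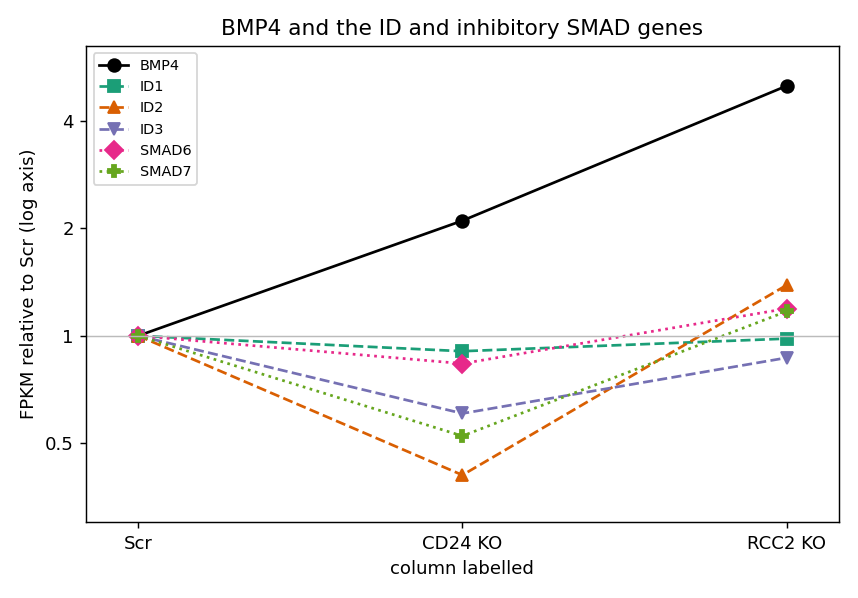
FPKM relative to Scr on a log axis for BMP4 and the 5 ID and inhibitory SMAD genes in the 3 deposited columns, where lines only join the values of 1 gene. BMP4 is at 2.103 in CD24 KO and 5.02 in RCC2 KO, while the target genes lie between 0.407 and 0.905 in CD24 KO and between 0.868 and 1.39 in RCC2 KO.

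In RCC2 KO against Scr, 1 of 8 members compared was at least 2-fold higher, BMP4, and 0 were at least 2-fold lower. Of all genes compared, 0.406% were at least 2-fold higher and 0.796% at least 2-fold lower. Among genes with a mean of 1 to 10 FPKM, where BMP4 lies, 0.462% were at least 2-fold higher. BMP4 entered the list for this difference, so nothing is read from its count. Next to BMP4, ID2 had the highest difference of the members, 0.45, and ranked 382 from the highest of all genes.

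The columns labelled RCC2 KO and CD24 KO were also set against each other, a comparison without the Scr values. BMP4 and ID2 were at least 2-fold higher in RCC2 KO, 2 of 8 members compared, and 0 were at least 2-fold lower. Of all genes, 4.02% were at least 2-fold higher and 4.30% at least 2-fold lower. The RCC2 KO value for which BMP4 was chosen enters its difference, so nothing is read from its place in this count, and without BMP4 the count was ID2 alone. ID2 had the larger difference, 1.67, a ratio of 3.41, and ranked 62 from the highest. BMP4 differed by 1.08, a ratio of 2.39, and by 0.69 with a pseudocount of 5, short of the minimum. SMAD7 followed at 0.77, with a plain ratio of 2.24, and was at 1.10 with a pseudocount of 0.1. ID3, SMAD6, BMPR1A and ID1 were higher by 0.51, 0.36, 0.25 and 0.11, of which ID1 changed sign to -0.047 under quantile normalization. BMPR2 was the only member lower in RCC2 KO, at -0.38. In CD24 KO itself BMP4 lay above its Scr level and ID2 below its own.

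**Figure D3:**
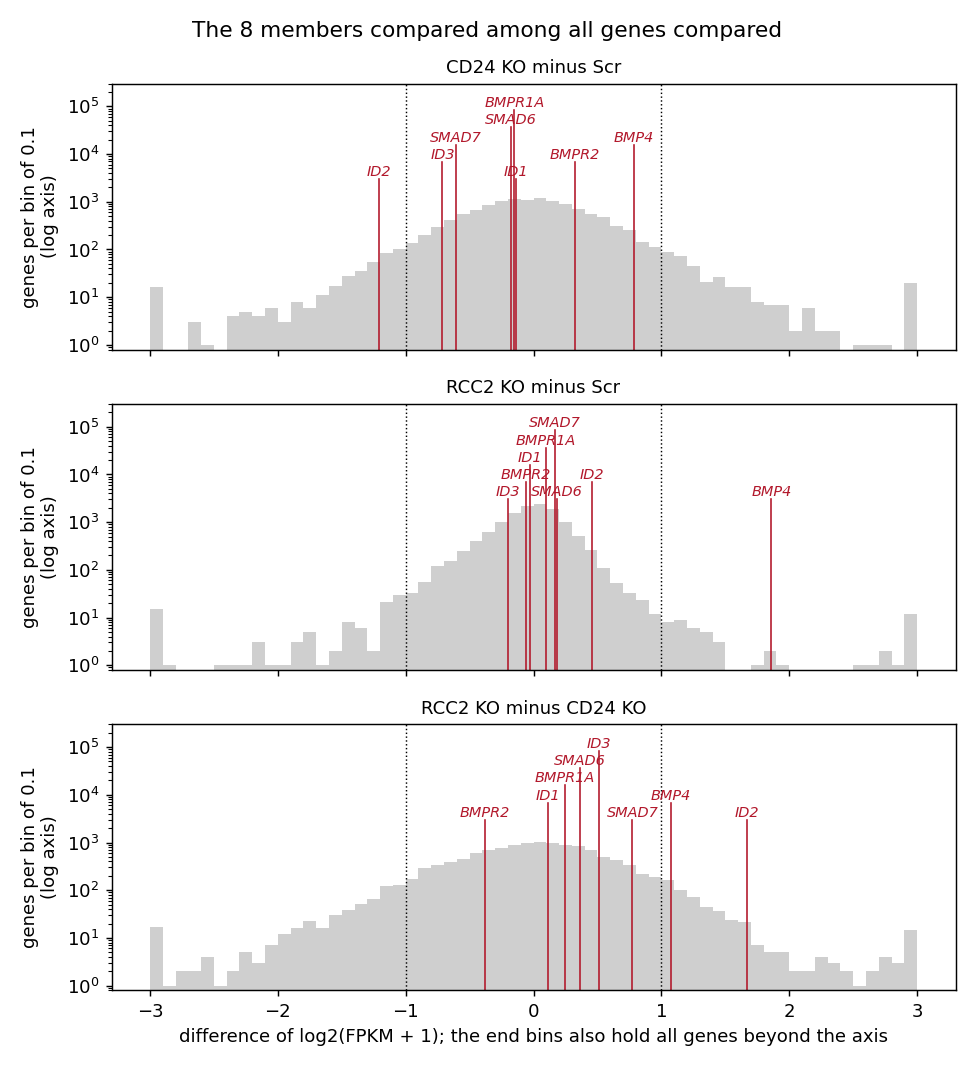
Differences of log2(FPKM + 1) for the 12822 genes compared, as grey bars counted in bins of 0.1 on a log axis, with a red line for each of the 8 members compared and dotted lines at the 2-fold minimum. ID2 lies past it in CD24 KO at -1.21, BMP4 in RCC2 KO at 1.86, and both BMP4 and ID2 between the knockouts.

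Around these members, 80 further genes of BMP signaling and of the related TGF-β branch were listed, and 45 of them were among the genes compared. On the scale of log2(FPKM + 1), 1 of the 45 was at least 2-fold higher in CD24 KO, TOB1, and 1 was at least 2-fold lower, BMPER, beside 2.67% and 3.03% of all genes compared. In RCC2 KO 0 were at least 2-fold higher and 1 was at least 2-fold lower, JUNB, beside 0.406% and 0.796% of all genes. The plain ratio, which has no pseudocount, also put genes of low level past 2-fold, and these were looked up after their values had been seen. In CD24 KO they were BAMBI at 2.69 times Scr, FSTL1 at 0.407, BMP6 at 0.399, NOG at 0.297 and MSX2 at 0.283. In RCC2 KO they were NOG at 2.59 times Scr, BMP8B at 0.490, FSTL1 at 0.461 and BMP6 at 0.382. BMP6 and MSX2 reached 1 FPKM in Scr alone, so their places below Scr were fixed by the filter. NOG reached it in RCC2 KO alone, so its place above Scr there was fixed too. No share of all genes past 2-fold by plain ratio was worked out, so nothing is read from how many these are. The median log2 difference of the 45 genes was -0.06 in CD24 KO and -0.05 in RCC2 KO, beside medians of -0.03 and -0.0036 over all genes compared. These medians are taken over genes that went both ways.

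Of 10 other ligand genes, BMP6 and BMP8B were compared. BMP8B had 4.56 FPKM for Scr, 6.83 for CD24 KO and 2.23 for RCC2 KO, a log2 difference between the knockouts of -1.28. Its near copy BMP8A was below 1 FPKM throughout, and the estimation could have divided fragments between them. BMP8B also shares its position with OXCT2 and PPIE. BMP6 was at 1.38, 0.550 and 0.527 FPKM and shares its position with 7 other genes of the table. BMP8B was lower than Scr in RCC2 KO. BMP6 reached 1 FPKM in Scr alone, so its place below Scr was fixed by the filter, and nothing is read from it.

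Among 10 further receptors and co-receptors, 5 were compared and none passed the 2-fold minimum. ACVR1, another type I receptor, was at 11.3, 11.0 and 11.4 FPKM in Scr, CD24 KO and RCC2 KO, and NEO1, a co-receptor of repulsive guidance molecules, was at 27.4, 25.1 and 22.6 FPKM. The signal-transducing SMADs were all compared, 4 of 4, and none passed either. SMAD1 was at 17.9, 18.2 and 19.0 FPKM and SMAD5 at 16.3, 13.5 and 15.9 FPKM, so the RNA for the transducers of a BMP signal was present in every column.

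Of 17 extracellular antagonists and modulators, 7 were compared. NOG, whose protein noggin binds BMP4 and keeps it from receptors, had 0.931 FPKM for Scr, 0.277 for CD24 KO and 2.41 for RCC2 KO. BMPER, a secreted BMP-binding modulator, was at 1.41, 0.203 and 1.53 FPKM. BMPER had the same order of columns as ID2, SMAD6 and SMAD7, an order that 27.0% of all genes compared had. Its step from Scr to RCC2 KO was small. NOG had this order too, but it reached 1 FPKM in RCC2 KO alone, so its highest column was fixed by the filter. FSTL1, FSTL3, TWSG1, NBL1 and CRIM1, the others compared, had other orders. The log2 differences between RCC2 KO and CD24 KO were 1.42 for NOG and 1.07 for BMPER. BMPER in CD24 KO was at a ratio of 0.144 to Scr, at a level of 0.203 FPKM. CRIM1 and TWSG1 were the most abundant of the list, at 99.8, 91.6 and 97.3 FPKM and at 39.9, 44.1 and 32.8 FPKM.

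The intracellular brakes were all compared, 9 of 9. TOB1, an antiproliferative protein that binds SMADs, rose from 101 FPKM in Scr to 261 FPKM in CD24 KO, a log2 difference of 1.36, and was at 88.3 FPKM in RCC2 KO. It shares its position with TOB1-AS1. SMURF2, a ubiquitin ligase that marks receptors and SMADs for degradation, was at 45.6, 26.7 and 44.0 FPKM, and STUB1, also a ubiquitin ligase, at 30.04, 24.3 and 30.5 FPKM. Apart from TOB1, the list lay between differences of -0.75 and 0.22 in CD24 KO.

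Of 15 other BMP-responsive genes, 7 were compared. In RCC2 KO 7 of 7 were lower than Scr, as were 50.6% of all genes compared, and 1 of the 7, JUNB, passed the 2-fold minimum. MSX2 reached 1 FPKM in Scr alone, so its place below Scr was fixed by the filter, and nothing is read from the count of 7. BAMBI and GATA2 were lower by little, at log2 differences of -0.013 and -0.024. The median of the 7 was -0.34, and it was -0.12 with a pseudocount of 5, -0.19 over those that reached 1 FPKM in all 3 columns and -0.07 with no filter, where the other 8 genes of the list enter. JUNB, an AP-1 transcription factor that many signals induce, had 45.2 FPKM for Scr, 36.1 for CD24 KO and 22.0 for RCC2 KO. GATA2 was at 9.10, 7.64 and 8.93 FPKM and HES1, better known as a Notch target, at 6.61, 6.76 and 4.50 FPKM. BAMBI, a pseudoreceptor that blocks BMP and TGF-β receptors, was singled out after its values had been seen. It had 1.35 FPKM for Scr, 3.63 for CD24 KO and 1.33 for RCC2 KO, and its difference of 0.98 in CD24 KO lay just short of the minimum. BAMBI and SMAD7, both known as feedback inhibitors, thus lay on opposite sides of Scr in CD24 KO. ID4, the remaining ID gene, was listed at 0 in every column.

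The E proteins that ID proteins bind were also read. TCF3 was at 49.9, 32.2 and 48.2 FPKM and TCF12 at 37.6, 29.0 and 34.5 FPKM, so both were lower in CD24 KO together with ID2 and ID3, by less than 2-fold. TCF4 was below 1 FPKM throughout. In the TGF-β and activin branch 9 of 12 genes were compared and none passed the 2-fold minimum. TGFBR2 was at 39.7, 55.6 and 64.6 FPKM and TGFB1 at 39.7, 43.9 and 36.7 FPKM.

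**Figure D4:**
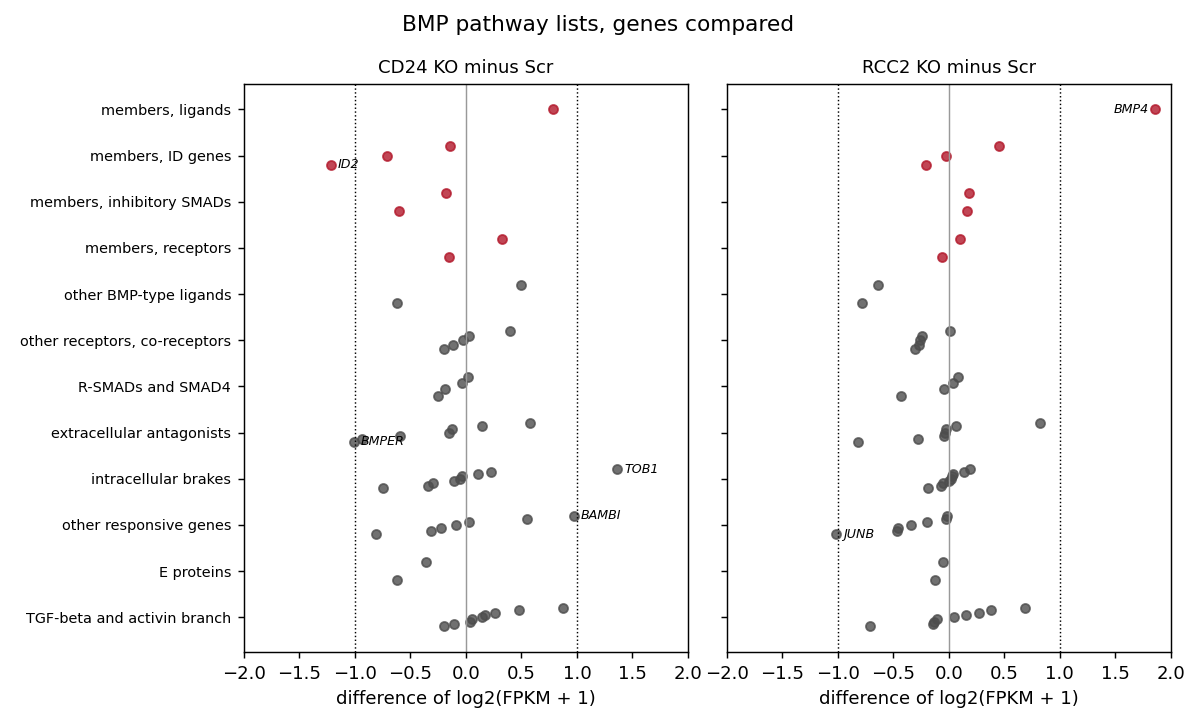
Differences of log2(FPKM + 1) from Scr in CD24 KO (left) and RCC2 KO (right) for the members in red and the pathway lists in grey, with 1 point for each gene compared and dotted lines at the 2-fold minimum. TOB1 at 1.36 lies past the minimum in CD24 KO and JUNB at -1.01 in RCC2 KO.

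The genes most like BMP4 were sought among 9376 genes above 0 in every column with at least 5 FPKM in 1 of them. Likeness was the distance between a gene's pair of log2 differences from Scr and that of BMP4, over the 3 columns, so a smaller distance means a closer pattern. Among the 6 nearest were IFI44 at a distance of 0.45, SNORA8 at 0.45, F13A1 at 0.46, ATP5EP2 at 0.62 and PITPNM3 at 0.66. IFI44, an interferon-induced gene, had 1.34 FPKM for Scr, 2.84 for CD24 KO and 5.26 for RCC2 KO. SNORA8 lies within a host gene and shares its position with other small RNAs, so its value is less certain. SMAD6, SMAD7 and the pathway genes below 5 FPKM in every column were not in this search, so their absence says nothing. Of the ID genes and the pathway genes that were searched, none was among the 6. The RCC2 KO difference for which BMP4 was chosen enters the distance, so nothing is read from that absence.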

How the data were processed

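RNA was measured in 6 libraries of DU145 cells, 2 for each label. The authors deposited 1 table of FPKM values, with 1 column per condition. The submitters' processing notes name HISAT, StringTie, Cufflinks and GATK, with no roles or versions. The labels and the methods name different library kits, and whether counting used strand is not given in the sources used here. The genome build is not named. Only 15.8% of 24864 symbols that GENCODE 29 holds once lay over their place in GRCh38, and 0 of the 10 members did, so positions were read as hg19 and starts written from 1.

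Genes with at least 1 FPKM in at least 1 column were compared as log2(FPKM + 1). With 1 value per condition no test was run, and at least 2-fold took its place. The members, lists and settings were chosen with earlier results of these data known. Named genes were the members, the targeted genes, listed genes past 2-fold in any comparison, up to 2 more a list with the highest mean FPKM and the 6 genes nearest to BMP4, and some genes under this rule are not reported here. Ratios between columns below 0.3 FPKM gave no common step (the commonest held for 2.64% of 2277 genes), so depth is unknown. Calculations were tested on simulated data. Alternatives were pseudocounts of 0.1 and 5, median centring, quantile normalization, other filters and a minimum of 1.5-fold. Promoter windows were taken from RefSeq, where all members but BMP2 and BMP7 had one. Python 3.11.15, NumPy 2.4.6, pandas 2.3.3 and matplotlib 3.10.9 were used.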

Additional observations from a re-analysis of the deposited data

How the results depend on the processing

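No paired analysis was possible because the table holds 1 value per condition, and for the same reason no replicate could be left out. No result past the 2-fold minimum changed sign under any setting. The number of target genes with the column order of BMP4 was 0 under quantile normalization and also under median centring. Centring took off a median of -0.034 in CD24 KO, where each target lay at -0.14 or lower, so it could not raise that count. A minimum step between neighbouring columns could only lower that count, so it says nothing here. The pseudocount moved the low members, by its construction. With 0.1, BMP4 in CD24 KO was at 1.03 (1 member higher), SMAD7 between the knockouts at 1.10 and the other ligands in RCC2 KO at -1.12, and 684 genes were higher in CD24 KO, 122 higher and 321 lower in RCC2 KO and 1123 lower in RCC2 KO than in CD24 KO. With 5, BMP4 was at 1.07 in RCC2 KO and 0.69 between the knockouts (1 member higher), ID2 in CD24 KO at -0.96 (0 members lower), and 96 genes were higher and 182 lower in CD24 KO, 23 and 31 in RCC2 KO, and 237 and 143 between the knockouts. Quantile normalization took ID1 to 0.0048 in CD24 KO and -0.047 between the knockouts, and the cause was not tested. With no filter the other ligands were at -0.031 in RCC2 KO and -0.027 between the knockouts, where 8 ligands below 1 FPKM enter. With at least 1 FPKM in every column, which leaves BMP8B alone of these, they were at 0.49 in CD24 KO and -1.28 between the knockouts, and 210 genes were higher in CD24 KO, 23 higher and 44 lower in RCC2 KO and 365 lower between the knockouts. At 1.5-fold, 1225 genes were higher and 1484 lower in CD24 KO (1 and 3 members), 186 and 490 in RCC2 KO, and 1771 and 1809 between the knockouts.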

Other observations

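Of the pathway genes compared that lie on chromosome 18, looked up after their values had been seen, SMAD2, SMAD4 and TWSG1 were lower than Scr in the column labelled RCC2 KO and SMAD7 was not. SMAD2, a transducer of TGF-β and activin signals, was at 25.8 FPKM in Scr and 15.3 FPKM in RCC2 KO, a log2 difference of -0.71. SMAD4, the partner shared by both branches, was at 10.5 and 7.52 FPKM, a difference of -0.43, and TWSG1 differed by -0.27. The median over 191 genes of the chromosome was -0.21, and SMAD7 differed by 0.17. Copy number was not measured, and its part in these values was not tested.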
